A study of Homo sapiens with 6 samples.

Results

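The genes of the inhibin, activin and follistatin system were followed in H295R/TR SF-1 cells. H295R is a line from a human adrenocortical carcinoma, and in this subclone doxycycline (Dox) induces SF-1, a nuclear receptor that the NR5A1 gene encodes. The members were the 9 genes INHA, INHBA, INHBB, FST, FSTL3, TGFBR3, ACVR1B, ACVR2A and ACVR2B, taken as every probe set that the platform annotation assigns to them alone, which gave 22 of 54613 probe sets and 9 of 19775 genes. RNA was measured on 6 Affymetrix 3′ expression arrays. All cultures were of the same subclone and carried the inducible SF-1, 3 labelled as kept for 72 h in basal conditions without Dox and 3 labelled as kept for the same 72 h with Dox at 1 µg/mL. As a model the series is 1 cell line with a single inducible subclone, and the agent itself was given to 1 group only. The comparison asks which of these genes differ when SF-1 is raised.

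Inhibins and activins are dimers of the transforming growth factor beta family that share their beta subunits. INHA encodes the alpha subunit, found in inhibins only, while INHBA and INHBB encode the beta A and beta B subunits, which pair with alpha to give inhibin or with each other to give activin. Activin binds a type II receptor (ACVR2A or ACVR2B), which activates the type I receptor ACVR1B, and the signal reaches the nucleus through SMAD2, SMAD3 and SMAD4. FST (follistatin) and FSTL3 bind activin outside the cell and keep it from its receptors, and TGFBR3 (betaglycan) is the coreceptor that lets inhibin hold the type II receptors away from activin. The adrenal cortex makes inhibin and activin, and the alpha subunit gene is a known target of SF-1 in gonadal and adrenal cells.

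The start regions of 3 members are shown because FST and INHBB moved most in opposite directions between the arrays compared below, and INHA is the member best known as an SF-1 target. Each is the 250 bases before the gene's start as RefSeq gives it on GRCh38.p14, read along the gene's own strand, which is the plus strand for FST (chr5:53480379-53480628), INHBB (chr2:120345886-120346135) and INHA (chr2:219572060-219572309). Capitals mark the letters AGATAA, which GATA factors can bind, and in INHA also TGCGTCA, a cyclic AMP response element variant.
FST: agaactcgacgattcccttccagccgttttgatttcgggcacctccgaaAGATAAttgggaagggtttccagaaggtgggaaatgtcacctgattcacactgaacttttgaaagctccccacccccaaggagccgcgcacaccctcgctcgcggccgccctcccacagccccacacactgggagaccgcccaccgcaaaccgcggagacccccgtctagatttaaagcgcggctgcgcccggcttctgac
INHBB: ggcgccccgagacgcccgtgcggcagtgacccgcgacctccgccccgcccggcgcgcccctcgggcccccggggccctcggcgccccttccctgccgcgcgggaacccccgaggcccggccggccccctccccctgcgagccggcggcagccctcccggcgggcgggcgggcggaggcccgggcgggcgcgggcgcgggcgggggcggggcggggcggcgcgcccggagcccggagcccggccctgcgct
INHA: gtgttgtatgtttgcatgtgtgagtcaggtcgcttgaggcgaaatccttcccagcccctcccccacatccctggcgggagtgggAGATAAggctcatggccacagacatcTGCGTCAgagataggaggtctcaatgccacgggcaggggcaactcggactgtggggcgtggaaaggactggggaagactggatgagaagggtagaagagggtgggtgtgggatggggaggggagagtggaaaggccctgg
The letters AGATAA began 201 bases before the start in FST and 166 bases before it in INHA, where TGCGTCA began at 140 bases. In the INHBB region, of which 89.6% was G or C against 60% in FST and 59.6% in INHA, no searched motif was found.

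Over the 10 start regions of the 9 members (ACVR1B had 2), searched on both strands over 250 bases before and 50 after the start, AGGTCA, the half-site letters of SF-1 and many other nuclear receptors, was in 0 of 10 and in 13.8% of the 35116 regions of all genes. The longer CAAGGTCA, which contains AGGTCA, was in 0 of 10 and 1.28% of all, and the cyclic AMP response element TGACGTCA in 0 of 10 and 1.85% of all. AGATAA was in 4 of 10 (INHA, INHBA, FST and the second region of ACVR1B) and in 10.3% of all. TGCGTCA, which was added to the search after the sequences had been read, was in INHA alone and in 2.47% of all. These counts describe exact letters in short windows, and apart from TGCGTCA variants of these sites were not searched. SF-1 binding at these genes was not analysed here.

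Basal and Dox below stand for an array's label, and the number after them is only a name. The closest partner of every array had the opposite label, and 2 of these pairs were near-identical. Basal 1 and Dox 1 differed with an SD of 0.134 (log2, over all probe sets), basal 3 and Dox 2 with an SD of 0.149, and in neither pair did a probe set differ by over 2-fold. All other pairs of arrays had an SD between 0.258 and 0.461, and in them 525 to 2264 probe sets were more than 2-fold apart. Basal 2 and Dox 3, with an SD of 0.318, were each other's closest array. Basal 2 and Dox 3 stood apart from the other 4 arrays, a split called the array set below, and the titles of basal 1 and Dox 1 were written in another style than those of the other 4. NR5A1, the gene that Dox should raise, read 5.84, 5.92 and 6.30 in basal 1 to 3 and 5.55, 6.21 and 6.41 in Dox 1 to 3 (log2 signal). The array labelled Dox 1 was thus the lowest of all 6, the groups overlapped and the difference was 0.03 (exact permutation test, two-sided p = 1, smallest possible 0.1). The study reports SF-1 overexpression with Dox in these cells by immunoblot, a protein measure that is not tied here to single arrays. Whether the NR5A1 probe set reads the inducible transcript is not given in the sources used here.

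For this reason each member is given in all 6 arrays by label, and again without basal 3 and Dox 1, which takes 1 array of each near-identical pair out, with the array set as a block. That second comparison sets Dox 2 against basal 1 and Dox 3 against basal 2. It has 1 residual degree of freedom and was chosen with earlier results of these data known, so its adjusted p-values describe these 4 arrays and are not independent evidence. The SEs and intervals of the limma fits are moderated, that is, they borrow variance from all genes. With 1 residual degree of freedom they are not a gene's own spread between arrays and can be narrower than it. In this comparison NR5A1 was higher by 0.43 (exact permutation test, two-sided p = 0.333, the smallest that 4 arrays allow). The opposite omission, without basal 1 and Dox 2, gave a NR5A1 difference of -0.13 (exact permutation test, two-sided p = 1). The directions below therefore rest on the labels of the arrays kept.

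By label, 0 of the 9 members and 0% of all genes passed an adjusted p of 0.05 (limma, Benjamini-Hochberg over 19775 genes), and the lowest unadjusted p of a member was 0.202, while 109 genes were under an unadjusted 0.05. In 0 of 9 members did the labelled groups separate without overlap, against 3.17% of all genes. Without basal 3 and Dox 1, INHBB was higher in the arrays labelled Dox, 1 of 9 members against 3.42% of genes called higher, and FST and TGFBR3 were lower, 2 of 9 against 3.58% called lower. FST moved most, by 2.63-fold. The median difference of the 9 members was -0.03 by label and -0.06 without the 2 arrays, beside -0.000455 and -0.00617 over all genes. None of the 3 calls held without the block. With the opposite omission 0 members and 0 genes were called, and 112 genes were under an unadjusted 0.05.

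Of the 22 probe sets, 12 read above the median of their array in all 6 arrays, 8 below it in all 6, and 1 each of INHBA and INHBB above it in 5 of 6. The array medians were 5.56 to 5.60 (log2). Levels of different probe sets are not comparable, since each has its own probes.

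**Figure D1:**
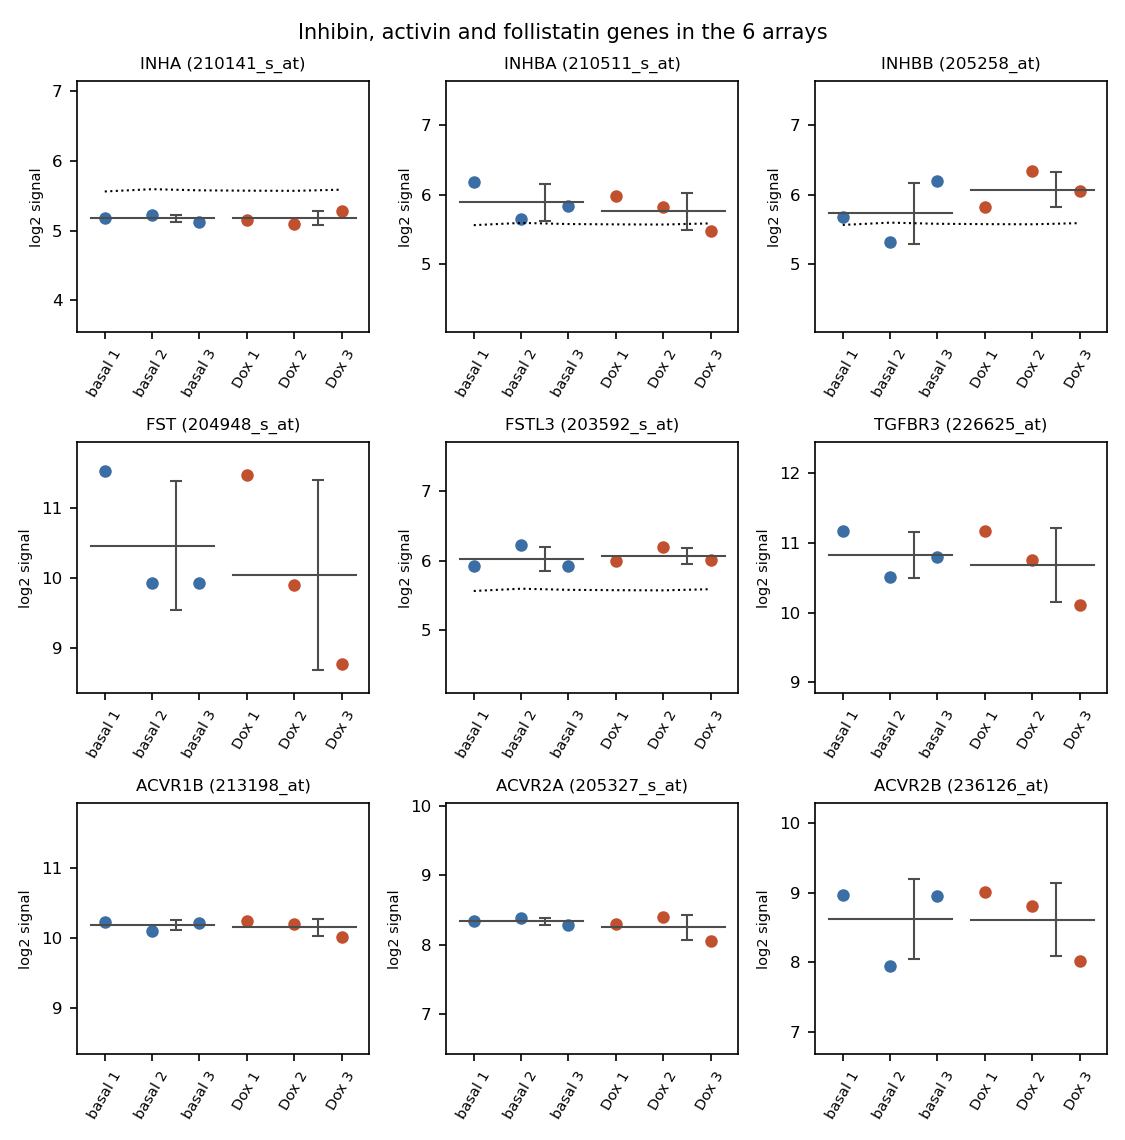
Log2 signal (y axis) of the brightest probe set of each of the 9 genes in the 3 basal and the 3 Dox arrays, with each group's mean and SD as bars and the array median as a dotted line where it is in range. Basal and Dox arrays overlap in every gene, and FST has the widest spread, from 8.76 in Dox 3 to 11.53 in basal 1.

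Among the ligand subunits, INHA was nearly flat over the arrays. Its 1 probe set read 5.18, 5.23 and 5.12 in basal 1 to 3 and 5.15, 5.09 and 5.29 in Dox 1 to 3. All 6 values lay below the array median and the whole range was 0.20. The labelled difference was 0.00 ± 0.09 (SE, 95% interval -0.22 to 0.22) and without basal 3 and Dox 1 it was -0.01 ± 0.13 (-0.30 to 0.27, adjusted p = 0.979).

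INHBB, the beta B subunit, was the only member called higher without basal 3 and Dox 1. It read 5.67, 5.31 and 6.20 in basal 1 to 3 and 5.82, 6.33 and 6.05 in Dox 1 to 3. Basal 2 was the lowest and the only value below the array median, and basal 3 lay above Dox 1 and Dox 3, so the groups overlapped. By label the difference was 0.34 ± 0.24 (-0.23 to 0.91, adjusted p = 1). Without basal 3 and Dox 1 it was 0.70 ± 0.13 (0.42 to 0.98, limma adjusted p = 0.00600), or 1.62-fold, and it was 0.66 between Dox 2 and basal 1 and 0.73 between Dox 3 and basal 2. Within the near-identical pairs INHBB was higher by 0.15 in Dox 1 against basal 1 and by 0.14 in Dox 2 against basal 3. These values are close to the SD over all probe sets in the same pairs, 0.134 and 0.149. Basal 1 and Dox 2 are also among the arrays kept above, so the values are not separate evidence. With the opposite omission the difference was 0.18 ± 0.31 and was not called.

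INHBA, the beta A subunit, had 3 probe sets that did not move alike. The brightest, 210511_s_at, read 6.18, 5.66 and 5.84 in basal 1 to 3 and 5.99, 5.82 and 5.47 in Dox 1 to 3. The first label style held the 2 highest values and the groups overlapped. Its difference was -0.13 ± 0.19 by label and -0.27 ± 0.13 (-0.56 to 0.02, adjusted p = 0.327) without basal 3 and Dox 1. The probe set 227140_at read 4.80, 3.67 and 3.51 in basal and 4.60, 3.32 and 2.98 in Dox, below the array median everywhere and high in the same 2 arrays. It was lower by 1.08 ± 0.17 on the log2 scale without basal 3 and Dox 1 (limma over 54613 probe sets, adjusted p = 0.00124), while 204926_at, between 3.14 and 3.53 in all arrays, differed by -0.14 and was not called. INHBA is in the gene lists the study drew from these samples, so its direction is not independent evidence. At the study's thresholds, 2-fold and an unadjusted p under 0.05, 0 genes passed by label here. The 3 INHBA sets differed by -0.36 to -0.05 by label.

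Among the activin-binding proteins, FST varied most of all members. Its brightest probe set read 11.53, 9.92 and 9.93 in basal 1 to 3 and 11.47, 9.90 and 8.76 in Dox 1 to 3. Basal 1 and Dox 1 were high together, basal 2, basal 3 and Dox 2 lay between 9.90 and 9.93, and Dox 3 was the lowest, a range of 2.77 or 6.81-fold in which the labelled groups overlapped. By label the difference was -0.42 ± 0.73 with an interval of -2.16 to 1.33, wide enough for a large change in either direction. Without basal 3 and Dox 1, FST was lower by 1.40 ± 0.12 on the log2 scale (moderated SE, interval -1.67 to -1.13, limma adjusted p = 3.98e-05).

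That call rests on the choice of arrays. FST differed by -0.05 between Dox 1 and basal 1 and by -0.03 between Dox 2 and basal 3, and with the opposite omission it was 0.19 ± 0.69 (-1.74 to 2.12). Dox 2 differed from basal 1 by -1.63 and Dox 3 from basal 2 by -1.16. Between array sets within 1 label, basal 2 differed from basal 1 by -1.61 and from basal 3 by -0.0047, and Dox 3 differed from Dox 2 by -1.14 and from Dox 1 by -2.71. The 4 arrays of the second label style alone gave -0.60. Of the 4 arrays kept, basal 1 alone has the first label style, so a block for the style takes basal 1 out and leaves basal 2 as the only basal array. The difference was then -0.59 (adjusted p = 0.959). The part of the label style in the difference was not tested.

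The other FST probe sets had the same arrays at the extremes, though in 226847_at Dox 1 and not basal 1 was the highest. Probe set 226847_at read 11.22, 9.51 and 9.54 in basal 1 to 3 and 11.30, 9.60 and 8.25 in Dox 1 to 3. Probe set 207345_at read 8.80, 6.64 and 6.85 in basal and 8.72, 6.88 and 5.69 in Dox. In all 3 the first label style was highest and Dox 3 lowest. Both sets were lower by 1.44 on the log2 scale without basal 3 and Dox 1 (SE 0.12 and 0.19, limma over 54613 probe sets, adjusted p = 3.96e-06 and 2.62e-04).

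**Figure D2:**
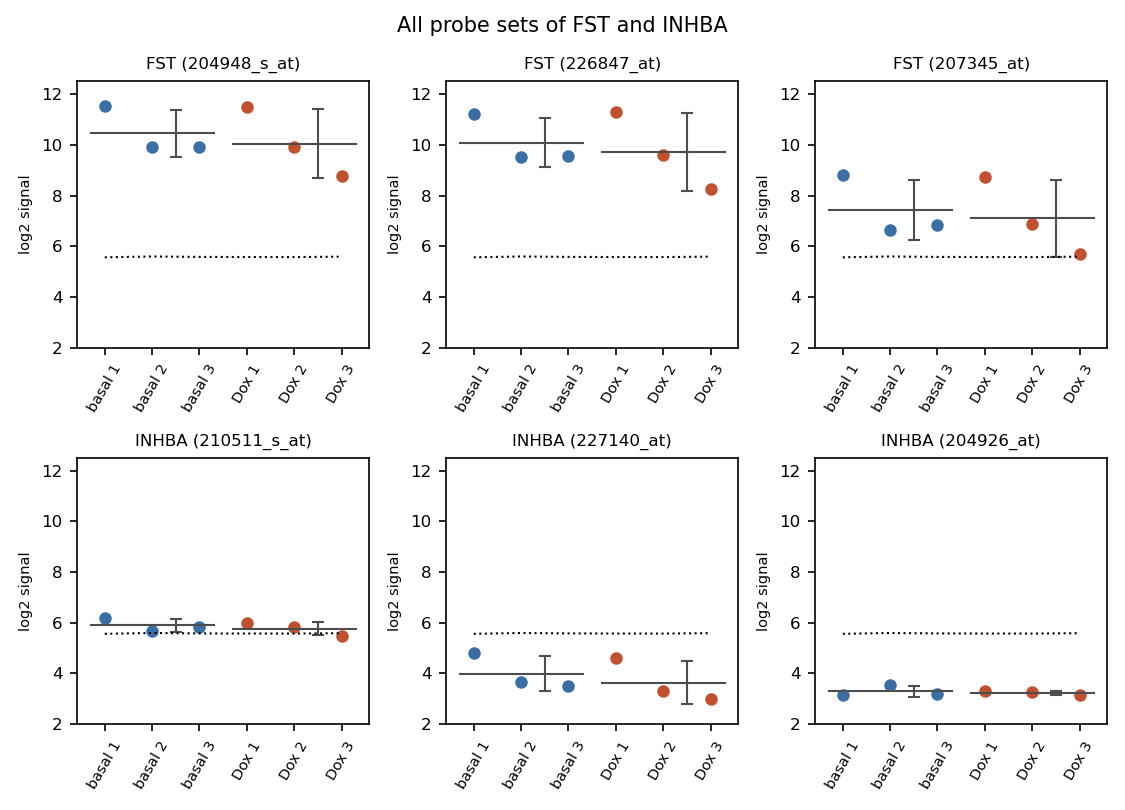
Log2 signal (y axis) of the 3 FST and the 3 INHBA probe sets in the 3 basal and the 3 Dox arrays, each point an array, with the group mean and SD. The FST sets share the high values of basal 1 and Dox 1 and the low value of Dox 3, while of the INHBA sets 227140_at spans 2.98 to 4.80 and 204926_at stays between 3.14 and 3.53.

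FSTL3, the other activin-binding protein, did not move with FST. Its probe set read 5.92, 6.23 and 5.93 in basal 1 to 3 and 5.99, 6.20 and 6.00 in Dox 1 to 3. Basal 2 and Dox 2 were the highest, 1 of each label. The difference was 0.04 ± 0.13 (-0.27 to 0.34) by label and 0.02 ± 0.15 (-0.30 to 0.35, adjusted p = 0.966) without basal 3 and Dox 1, where the pairs went opposite ways, with 0.27 for Dox 2 against basal 1 and -0.22 for Dox 3 against basal 2.

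The inhibin coreceptor TGFBR3 was bright in every array. Its probe set 226625_at read 11.17, 10.51 and 10.80 in basal 1 to 3 and 11.17, 10.76 and 10.11 in Dox 1 to 3. As for FST, basal 1 and Dox 1 were highest, Dox 3 was lowest and the groups overlapped. The difference was -0.15 ± 0.29 (-0.85 to 0.54) by label. Without basal 3 and Dox 1 it was lower by 0.41 ± 0.09 on the log2 scale (interval -0.61 to -0.21, limma adjusted p = 0.0199), or 1.33-fold, by -0.42 in one pair and -0.40 in the other, and this call was lost without the mean-variance trend (adjusted p = 0.0828). The second probe set, 204731_at, read 10.55, 10.14 and 10.24 in basal and 10.52, 10.06 and 9.90 in Dox, and its difference of -0.37 ± 0.11 missed the threshold over all probe sets (adjusted p = 0.0814). Between array sets within 1 label, basal 2 differed from basal 1 by -0.67 and from basal 3 by -0.30, and Dox 3 differed from Dox 2 by -0.65 and from Dox 1 by -1.06.

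The type I receptor ACVR1B had 6 probe sets, and 213198_at, the brightest, read 10.23, 10.11 and 10.22 in basal 1 to 3 and 10.25, 10.20 and 10.02 in Dox 1 to 3. Basal 2 and Dox 3 held the lowest value of their groups, and the 4 others lay between 10.20 and 10.25. Its difference was -0.03 ± 0.12 (-0.32 to 0.26) by label and -0.06 ± 0.10 (-0.28 to 0.16) without basal 3 and Dox 1. The 6 sets gave -0.28 to 0.11 in that comparison and 0 of 6 was called.

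Of the type II receptors, ACVR2A read 8.34, 8.39 and 8.29 in basal 1 to 3 and 8.30, 8.41 and 8.05 in Dox 1 to 3. In this set, 205327_s_at, Dox 3 alone was lower than the rest. Its difference without basal 3 and Dox 1 was -0.14 ± 0.13 (-0.43 to 0.16, adjusted p = 0.699). The other ACVR2A set, 228416_at, did not share this, with basal 2 lowest at 7.27 and Dox 3 at 7.40. Its difference in the same comparison was 0.08 ± 0.13 (-0.21 to 0.36). ACVR2B read 8.97, 7.95 and 8.95 in basal 1 to 3 and 9.01, 8.80 and 8.02 in Dox 1 to 3. Here basal 2 and Dox 3 were the low pair, by -1.02 between basal 2 and basal 1 and by -0.78 between Dox 3 and Dox 2. The labelled difference was -0.01 ± 0.36 (-0.87 to 0.86), and with the array set as a block and without basal 3 and Dox 1 it was -0.05 ± 0.12 (-0.32 to 0.23). A second ACVR2B set, 220028_at, went the other way between array sets, by 0.46 and 0.20, so the split is not the same across the probes of this gene. The receptors that bind activin thus gave no called difference in the comparison of 4 arrays. Intervals for the brightest set of each gene reached -0.43 and 0.23. Those of the dimmer sets reached -0.57 for ACVR1B 208223_s_at and 0.42 for ACVR1B 208218_s_at.

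**Figure D3:**
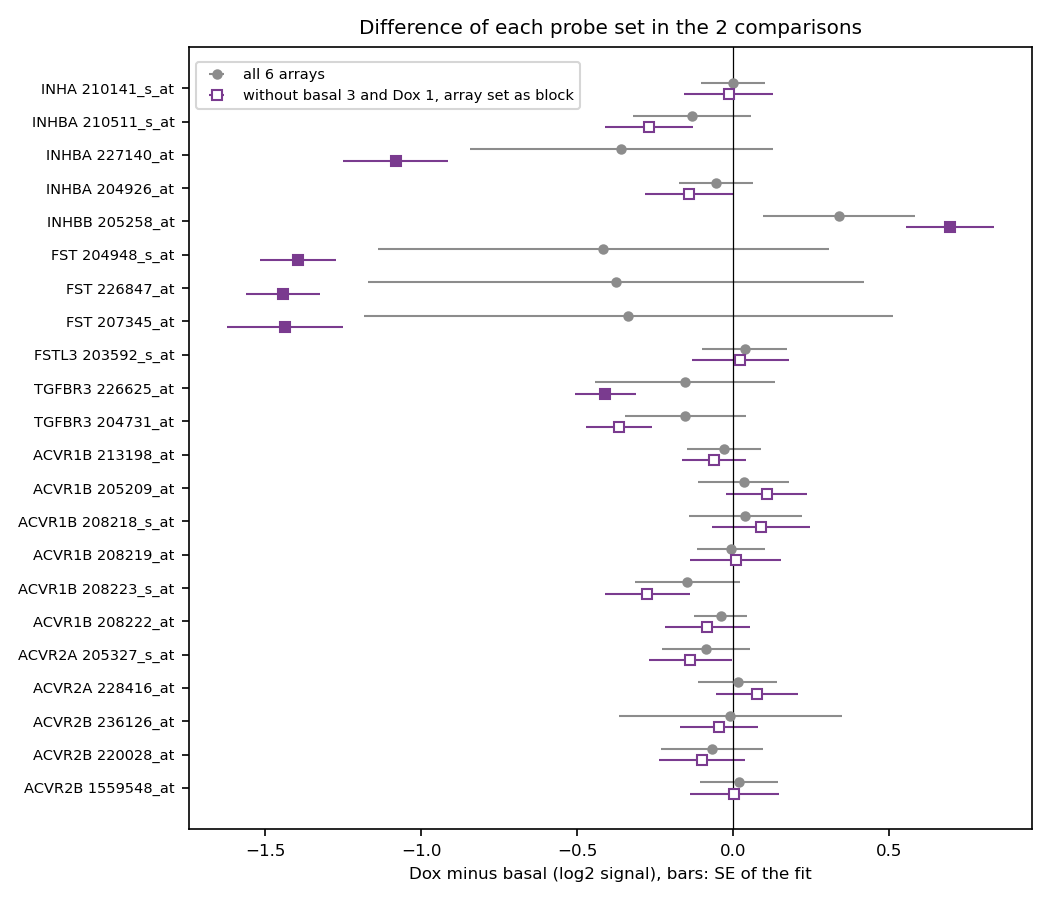
Difference Dox minus basal in log2 signal (x axis) for the 22 probe sets, with the SE of the fit as bars, in all 6 arrays (grey circles) and without basal 3 and Dox 1 with the array set as block (purple squares, filled where the adjusted p was under 0.05). Of the 22 sets, 0 were called in all 6 arrays, and 6 were called in the other comparison, 5 lower (FST 3, INHBA 1, TGFBR3 1) and 1 higher (INHBB).

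At the level of probe sets, 6 of 22 were called without basal 3 and Dox 1, against 4.15% of all 54613 probe sets, and 3 of these 6 read the same gene, FST. Over the 22 probe sets, Dox 1 differed from basal 1 by between -0.20 and 0.20, and Dox 2 from basal 3 by between -0.24 and 0.27. These pairs were named near-identical because their arrays differ little. Small ranges within them follow from that and are no measure for the differences between the arrays kept. By the range of their brightest probe set over all 6 arrays, the order of the members was FST at 2.77, TGFBR3, ACVR2B and INHBB between 1.02 and 1.06, INHBA at 0.70, ACVR2A at 0.35, FSTL3 at 0.31, ACVR1B at 0.23 and INHA at 0.20. Dimmer sets would change this order, since INHBA 227140_at had a range of 1.82 and ACVR1B 208223_s_at one of 0.66.

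The 5 genes whose levels followed FST most closely over the 6 arrays were HDAC9, PKP2, MYOT, EPDR1 and TGFB2, with Pearson correlations of 0.998 to 0.999. TGFB2, a ligand that binds TGFBR3, read 8.31, 7.14 and 7.05 in basal 1 to 3 and 8.28, 7.16 and 6.21 in Dox 1 to 3. All 5 were high in basal 1 and Dox 1 and lowest in Dox 3. Among the 19775 genes, 476 had a correlation with FST above 0.95. These values rest on 6 arrays, and whether the near-identical pairs among them raise such correlations was not tested.

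**Figure D4:**
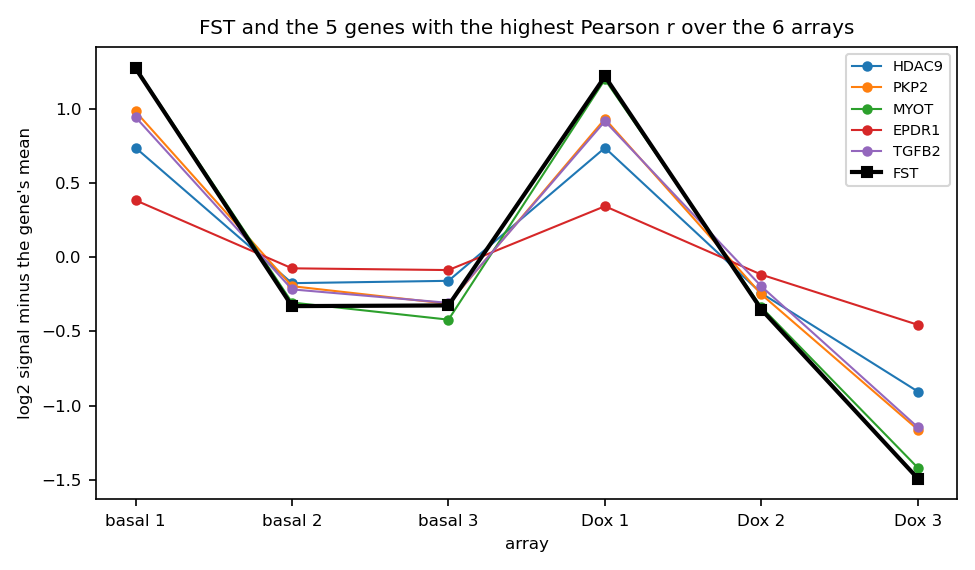
Log2 signal in the 6 arrays (x axis: arrays, y axis: log2 signal relative to each gene's mean over the arrays) of FST and the 5 genes most correlated with it, with lines that only join the values of 1 gene. FST and the 5 genes share the high values of basal 1 and Dox 1 and the low value of Dox 3.

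The other genes of the pathway were taken from fixed lists of ligands, receptors, antagonists, transducers, processing enzymes and targets, in which 42 genes had a probe set of their own. GDF1, TDGF1 and LEFTY2 were not analysed here. By label 0 of 42 were called. Without basal 3 and Dox 1, 1 of 42 was called higher and 3 lower, beside 3.42% and 3.58% of all genes, with a median difference of -0.03 against -0.00617 over all genes. Among the other ligands of the activin branch 0 of 8 was called, among the other receptors and coreceptors 0 of 6, and among the other secreted or membrane antagonists 0 of 7. INHBE, the beta E subunit, read 7.61 in basal 2 and between 5.46 and 6.00 in the other 5 arrays, and its difference of -0.70 ± 0.30 was not called (adjusted p = 0.260). It was singled out after its values were seen.

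The counts of the single lists below are 0 to 2 genes in each direction and stand beside the same shares. Of 12 intracellular transducers, 1 was higher, 1 lower and 10 not called without basal 3 and Dox 1. SMAD7, the inhibitory SMAD that blocks the type I receptor, read 6.74, 6.93 and 7.91 in basal 1 to 3 and 6.52, 7.90 and 8.01 in Dox 1 to 3. It was high in basal 3, Dox 2 and Dox 3, and higher by 1.12 ± 0.12 without basal 3 and Dox 1 (limma adjusted p = 1.99e-04), but its labelled difference was 0.28 ± 0.47. TGIF1, a repressor of SMAD2 and SMAD3, read 9.37, 9.32 and 8.78 in basal and 9.34, 8.76 and 8.57 in Dox, and was lower by 0.68 ± 0.11 on the log2 scale (adjusted p = 0.00336). SMAD2, SMAD3 and SMAD4 themselves were not called. SMAD7 is also in the gene lists the study drew from these samples, so its direction is not independent evidence. By label it, too, did not pass the study's thresholds here.

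Of 9 target genes of SMAD2 and SMAD3, 1 was higher (SMAD7), 2 lower and 6 not called. CDKN1A, the cell cycle inhibitor p21, read 10.58, 10.88 and 9.74 in basal 1 to 3 and 10.66, 9.72 and 9.75 in Dox 1 to 3. It was lower in basal 3, Dox 2 and Dox 3 than in the other arrays, and the difference without basal 3 and Dox 1 was -0.99 ± 0.11 (adjusted p = 1.45e-04). TGIF1 was the other lower target. The median over all 9, SMAD7 included, was -0.23. This is the value of CCN2, which read 3.30 to 3.82, below the array median in all 6 arrays, and was not called. Of the 4 enzymes that cut the precursors of these ligands, PCSK5 was lower by 0.58 ± 0.13 on the log2 scale (adjusted p = 0.0173) and 3 were not called.

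Of the 7 regulators of inhibin genes in steroid-making cells, GATA4 was higher and 6 were not called. It read 6.61, 6.72 and 7.11 in basal 1 to 3 and 6.49, 7.12 and 7.24 in Dox 1 to 3. As for NR5A1, Dox 1 was lowest and Dox 3 highest, and the difference was 0.51 ± 0.13 (limma adjusted p = 0.0319) without basal 3 and Dox 1 and 0.13 ± 0.24 by label. NR5A1 in the same fit was 0.43 ± 0.13 (adjusted p = 0.0808).

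**Figure D5:**
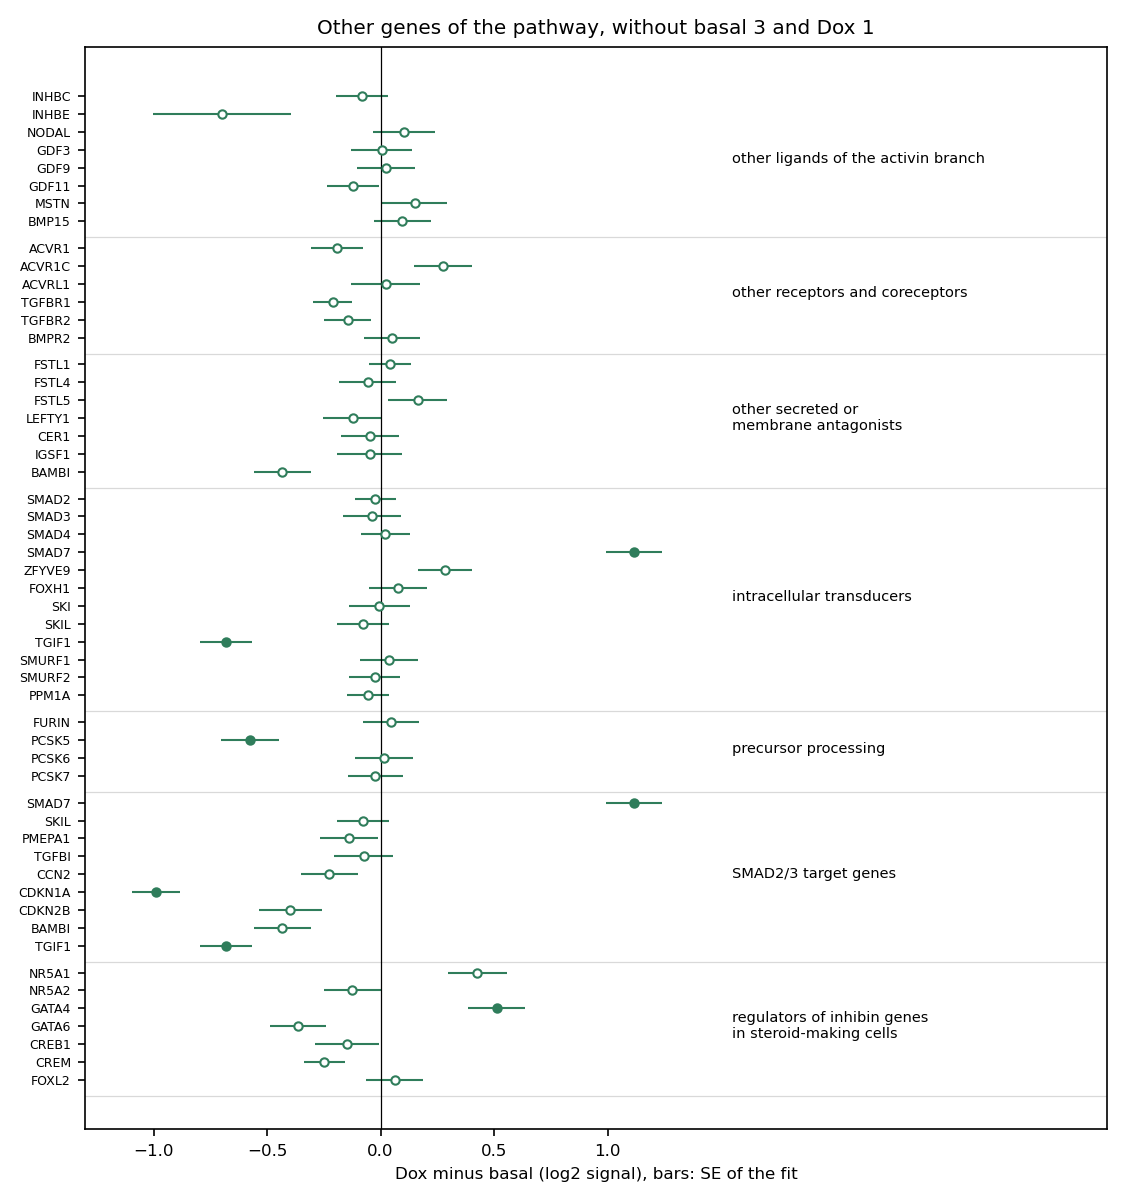
Difference Dox minus basal in log2 signal (x axis) without basal 3 and Dox 1 for the other pathway genes by list, with the SE of the fit as bars and filled points where the adjusted p was under 0.05. SMAD7, SKIL, BAMBI and TGIF1 stand in 2 lists each, and SMAD7 (1.12), CDKN1A (-0.99), TGIF1 (-0.68), PCSK5 (-0.58) and GATA4 (0.51) are filled.

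The cell type was checked against marker genes. Of 6 adrenocortical markers 3 were above the array median in all arrays, with a summed level (log2) of 12.03 to 12.73 in basal and 12.11 to 12.60 in Dox arrays that was highest in basal 2 and Dox 3, and without basal 3 and Dox 1, 2 of 6 were called lower, STAR (-0.54) and HSD3B2 (-1.40), and 0 of 6 higher. The 4 others were not called, with CYP11A1 at 0.30 and NR5A1 at 0.43, and CYP17A1 at -0.44 and MC2R at -0.28. The 4 Sertoli and granulosa markers, of cells that make much inhibin, were below the median in all arrays, and their sum ranged from 5.91 to 6.22 over the arrays. That of the 2 Leydig markers ranged from 6.31 to 6.68, and that of 6 stromal, endothelial and blood markers, 4 of them above the median, from 8.94 to 9.17. Of these 4, COL1A1 read 7.76 to 8.17, and PECAM1, PDGFRB and HBB read between 5.89 and 6.64, beside array medians of 5.56 to 5.60. A reading above the array median does not by itself show expression. Sums of different lists come from different probes and cannot be ranked against each other. The part of these in the members' differences was not tested. As the RNA is from whole cultures, fewer cells of a type and less RNA per cell cannot be told apart.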

How the data were processed

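Total RNA of 6 cultures, which the study describes as biological replicates, was read on HG-U133 Plus 2.0 arrays. The values deposited by the authors are 1 log2 signal per probe set and array. The submitters' processing notes name GCRMA, and the methods of the study name Affymetrix Command Console and Expression Console. Whether the arrays shared a single normalization run is not given in the sources used here. Deposited log2 values were used without rescaling or filter.

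Of 54613 probe sets, 41091 had 1 gene symbol, 1801 several and 11721 none. Each gene took the brightest of its probe sets (mean of the 6 arrays). Groups were compared with limma 3.58.1 (lmFit, eBayes with trend, two-sided, Benjamini-Hochberg over all 19775 genes or 54613 probe sets, threshold 0.05) under R 4.3.3, and NR5A1 with an exact permutation test. The code was tested on simulated data. Genes named outside the members were those called in the fixed lists, list genes of direct relevance, and the 5 genes most correlated with FST. The members and lists were chosen with earlier results of these data known. Promoters are from RefSeq (GRCh38.p14), with 10 regions found for the 9 members. Python 3.11.15 and matplotlib 3.10.9 made the figures and the motif search. Alternatives were the trend, a filter on dim genes, quantile normalization, the mean of probe sets, other blocks and omissions, and leaving out single arrays. The number of arrays limits the precision.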

Additional observations from a re-analysis of the deposited data

How the results depend on the processing

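By label, the count of called genes was 0 under every alternative run on all 6 or 5 arrays, including the array set as block with all 6, which was chosen after seeing the data, and 1383 without basal 3 and Dox 1 with the array set as block. In that comparison the filter left 9887 genes, of which 1476 were called. The count of 1383, of 19775 genes, was 1119 to 1491 under the trend, quantile and probe set mean alternatives. It was 0 with the label style as block (1070 genes at an unadjusted p under 0.05), 0 with no block (837) and 0 with the opposite omission (112), and 0 to 86 when single arrays were left out without the block. INHBB, FST and TGFBR3 then lost their calls. The label style as block equals leaving out basal 1, the only array of the first style among the 4, and gave INHBB 0.88 (adjusted p = 0.571), FST -0.59 (0.959) and TGFBR3 -0.08 (0.991), and with no block the adjusted p was 0.815 for INHBB and 1.00 for both others. INHBB and FST kept their calls without the trend, with quantile normalization and with the mean of probe sets, and so did TGFBR3 except without the trend (adjusted p = 0.0828). The filter removed INHA, INHBA, INHBB and FSTL3, which then have no value. With the mean of all probe sets INHBA was called lower at -0.50 (adjusted p = 0.0171).

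Directions changed as follows. By label, INHA was -0.013 without basal 3 and Dox 1, and with the opposite omission FST was 0.19, FSTL3 -0.079 and ACVR2B 0.070. When single arrays were left out by label, INHA ranged from -0.054 to 0.045, INHBA from -0.25 to 0.012, FST from -1.13 to 0.23, FSTL3 from -0.027 to 0.14, TGFBR3 from -0.40 to 0.13, ACVR1B from -0.076 to 0.039, ACVR2A from -0.16 to 0.013 and ACVR2B from -0.34 to 0.29. INHBB kept its direction, from 0.13 to 0.57. FST was 0.23 without Dox 3 and 0.12 without basal 1. Starting without basal 3 and Dox 1, the label style as block gave FSTL3 -0.13, ACVR1B 0.0037 and ACVR2B 0.46, and the opposite omission gave INHA 0.045, with the values above for FST, FSTL3 and ACVR2B. Leaving out single arrays without the block there gave INHA -0.11 to 0.085, FSTL3 -0.13 to 0.18, ACVR1B -0.15 to 0.030, ACVR2A -0.31 to 0.039 and ACVR2B -0.55 to 0.46, and the calls of INHBB (0.52 to 0.88), FST (-2.20 to -0.59) and TGFBR3 (-0.74 to -0.08) were lost. NR5A1 was -0.13 without basal 1 and Dox 2. The labels give no replicate numbers shared by the groups, so that the array set was the only pairing used. The cause of these changes was not tested.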

Other observations

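The platform also carries probe sets for antisense transcripts beside 2 members, which are not counted among the 22. INHBA-AS1 was read by 1557850_at between 4.88 and 5.49 (log2 signal) with a labelled difference of 0.16 ± 0.18, and by 1559163_at between 2.57 and 2.67 with a difference of 0.01 ± 0.07. ACVR2B-AS1 was read by 215590_x_at between 6.56 and 7.35 with a difference of -0.12 ± 0.24. None of these 3 probe sets was called by label (limma adjusted p = 1).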
